A study of Mus musculus with 9 samples.

Results

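The 93 genes described here encode the nuclear subunits of oxidative phosphorylation (OXPHOS) and a few factors that share their names, out of 18272 genes in the expression table. They were chosen by gene symbol alone: every symbol beginning with Nduf, Uqcr, Atp5 or Cox followed by a digit from 4 to 8, together with Sdha, Sdhb, Sdhc and Sdhd. By complex they were 7 core subunits, 31 accessory subunits and 8 assembly factors of complex I, 4 genes of complex II, 8 of complex III, 18 of complex IV and 17 of complex V. RNA-seq was done on the tibia of 9 female C57BL/6J mice, 1 library per mouse and 3 mice per group. The mice were 10 to 11 weeks old at purchase and were acclimated for 1 week. Mice with normal glucose tolerance (NGT) received vehicle and later saline. T1D mice received a single injection of streptozotocin (STZ), which destroys the beta cells of the pancreas, and from 2 weeks later saline. Lira mice received the same STZ injection and then 0.6 mg/kg/day of the GLP-1 receptor agonist liraglutide. Treatment lasted 8 weeks according to the methods, whereas the label of Lira mouse 3 gives 9 weeks.

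In OXPHOS, complexes I and II take electrons from NADH and succinate, complex III passes them to cytochrome c, and complex IV, cytochrome c oxidase, passes them to oxygen. Complexes I, III and IV pump protons across the inner mitochondrial membrane, and complex V, the ATP synthase, uses the return of these protons to make ATP. Striated muscle is rich in these transcripts and uses its own isoforms of some complex IV subunits, while bone cells, marrow and other tissues use the widely expressed isoforms.

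Expected counts per gene and FPKM values (fragments scaled for gene length and library total) were deposited. Levels of different genes were compared as FPKM only, and levels of a gene between mice as CPM, counts scaled to library size with TMM factors. Between 13086343 and 16528372 counts were obtained per library. A count of 0 therefore allows levels up to 0.163 to 0.237 CPM (3 counts, counting error only). A gene was tested if it had at least 10 counts in at least 3 libraries, which 13960 genes did. A gene was called changed at an adjusted p under 0.05 (edgeR, Benjamini-Hochberg over all tested genes) with a fold change over 2. Of the OXPHOS genes 92 were tested, and only Ndufb4b, a copy of the complex I accessory gene Ndufb4 listed at 0 FPKM in 6 mice, was not.

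The bones had been cleaned of muscle before freezing. All the same, the 10 genes of a skeletal muscle list (Acta1, Ckm and other markers) took 10.5% to 20.5% of the counts of every library, and all 10 passed the filter. An osteoblast and osteocyte list of 7 genes lay between 91.2 and 853 CPM in 8 mice and at 3616 CPM in T1D mouse 1. Lira mouse 3 held the highest erythroid list (20254 CPM) and neutrophil list (4772 CPM). OXPHOS genes are active in all of these cells, and in such bulk RNA fewer cells of a type and less RNA per cell cannot be told apart. Values without single mice are given beside the results that they turned.

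The OXPHOS genes took 1.85% to 2.76% of the counts of each library. The highest level per length was that of Atp5b, the catalytic beta subunit of ATP synthase, at a mean of 1444 FPKM over the 9 mice (1216 to 1915). Cox6a2, the muscle isoform of complex IV subunit 6A, followed at 1386 FPKM (1080 to 1730). Ndufa4, now counted as a complex IV subunit, had 827 FPKM (720 to 925), and Atp5a1, the alpha subunit of ATP synthase, had 790 FPKM (584 to 1120). These ranges overlapped between Atp5b and Cox6a2 and between Ndufa4 and Atp5a1. In complex III the small subunits Uqcrb (735 FPKM) and Uqcr10 (352 FPKM) were highest. In complex II they were Sdhb, its iron-sulfur subunit (334 FPKM), and Sdhc, a membrane anchor (278 FPKM). The highest accessory subunits of complex I were Ndufb9 (468 FPKM) and Ndufa3 (430 FPKM), and among the core subunits, which carry the redox chemistry, Ndufs7 had 268 FPKM. Assembly factors, which build complex I without staying in it, lay far lower, with Ndufaf5 at 35.4 FPKM and Ndufaf1 at 26.0 FPKM as their highest. The alternative isoforms Ndufa4l2 (11.3 FPKM), Cox6b2 (3.50 FPKM) and Cox4i2 (2.71 FPKM) were low.

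The mice moved most OXPHOS genes together. Lira mouse 2 had the highest CPM of all 9 mice for 60 of the 92 tested genes and NGT mouse 3 for 23. Lira mouse 3 had the lowest CPM for 62, T1D mouse 1 for 14 and T1D mouse 3 for 7. The highest and the lowest summed CPM both fell in the Lira group, whereas by share of library counts, without TMM, T1D mouse 3 was lowest. The median coefficient of variation over the 9 mice was 18.9% for the OXPHOS genes and 24.8% for all tested genes.

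Whether diabetes changed OXPHOS transcripts was asked by comparing T1D with NGT mice. Summed over the 92 genes, the level was 21034, 26454 and 26026 CPM in NGT mice 1, 2 and 3. It was 18117, 20961 and 20421 CPM in T1D mice 1, 2 and 3. Every T1D mouse lay below every NGT mouse, the nearest being T1D mouse 2 and NGT mouse 1, and the mean in T1D was 0.809 times that in NGT (24505 ± 3013 CPM in NGT and 19833 ± 1510 CPM in T1D, SD, n = 3 each). As a share of library counts, without TMM, the level was 2.53%, 2.36% and 2.30% in NGT mice 1, 2 and 3 against 2.26%, 2.08% and 1.85% in T1D mice 1, 2 and 3. The groups again did not overlap, but mouse 1, the lowest of both groups by TMM-scaled CPM, was the highest of both by share.

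Gene by gene the differences were small. None of the 92 genes was called (lowest adjusted p = 0.977, edgeR; background 0% of all tested genes), and none was called by DESeq2 either (lowest adjusted p = 0.183). At an unadjusted p under 0.05, 1 gene was lower, Cox7a1, where 3.95% of all tested genes passed this p and 1.6% were lower. The fold change was below 1 in 81 of the 92 genes (background 47.9%) and above 1 in 11 (background 52.1%). The median log2 fold change was -0.25 for the OXPHOS genes and 0.02 for all tested genes. For 30 of the 92 (32.6%; background 5.08%) every T1D mouse lay below every NGT mouse, and for 0 every T1D mouse lay above (background 3.52%). These genes were measured in the same 6 libraries and are not independent of each other.

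**Figure D1:**
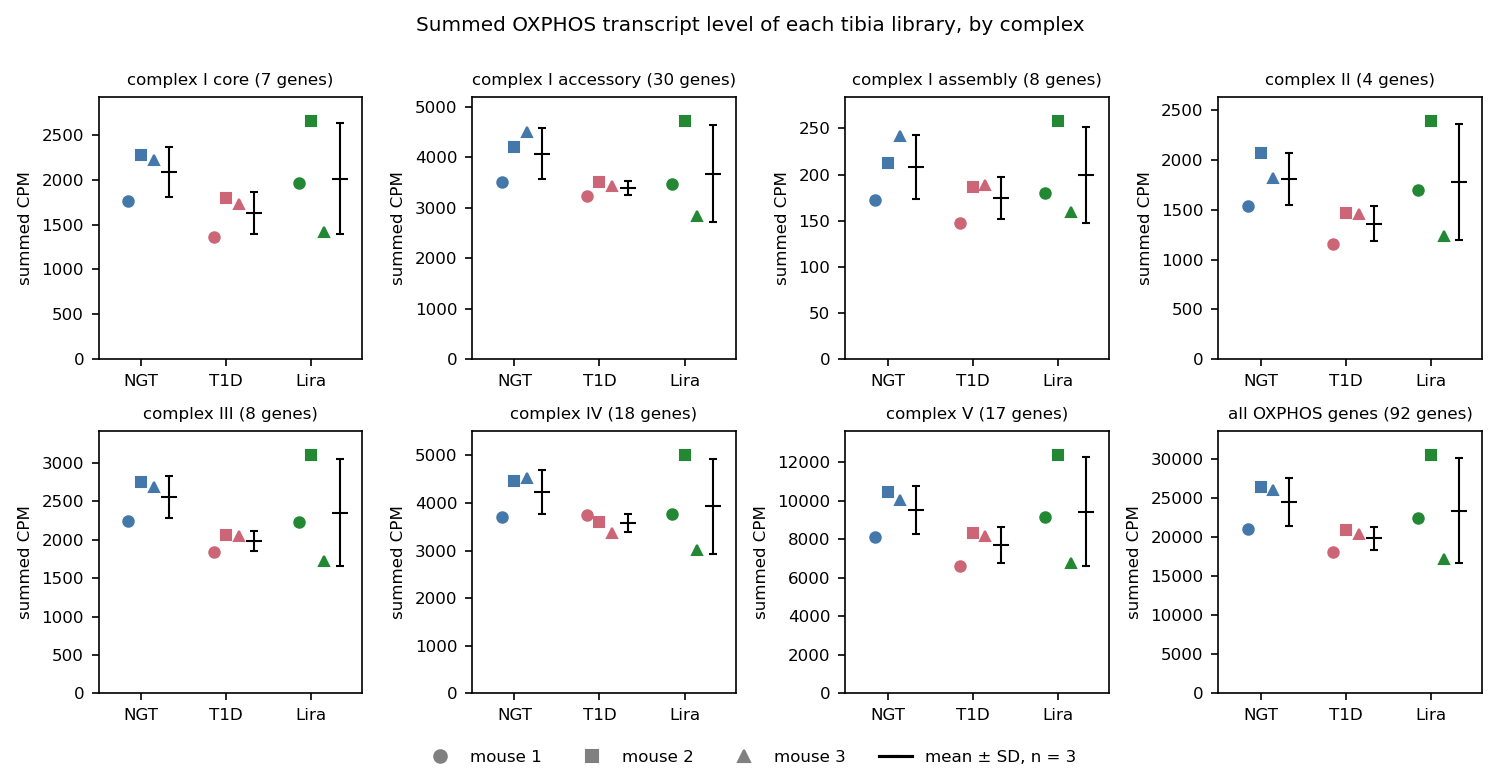
Summed CPM (vertical axis) of the tested OXPHOS genes of each complex in NGT, T1D and Lira tibiae; each point is 1 mouse, its shape gives the mouse number, and the bar gives mean ± SD (n = 3). T1D mice lie below all NGT mice for complexes II and III and for all genes together, and the Lira points are the most widely spread.

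The count of 30 genes depended on scaling. With library totals in place of TMM there were 17 (18.5%; 4.84% of all tested genes). Without NGT mouse 1, whose OXPHOS level in CPM was the lowest of its group, there were 73 (17.5% of all tested genes), and without any other mouse of these groups 30 to 39 (6.07% to 10.3%). Leaving out a mouse can only keep or raise such a count, so these values cannot show how far it rests on single mice. Divided by the CPM of the muscle list in the same library, 0 of the 92 genes were separated (0.451% of all tested genes). That list differed widely within each group, and few genes of any kind stayed separated, so this count says little about the OXPHOS genes. The summed level per 100 CPM of the muscle list was 19.3, 13.2 and 11.2 in NGT and 21.5, 12.1 and 9.03 in T1D, which overlap. The muscle list itself was at 109029, 199959 and 232172 CPM in NGT and at 84206, 173561 and 226126 CPM in T1D. Within each mouse number it was lower in T1D than in NGT, and with its mean as a covariate the median log2 fold change of the OXPHOS genes was -0.11, with 74 of 92 below 0 (48.8% of all tested genes). Without T1D mouse 1 and Lira mouse 3 the median was -0.26.

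Same-numbered NGT and T1D mice deviated together across genes and were taken as pairs. The labels give only the number, so this pairing was read from the same data and is not a stated part of the design. The highest correlation between mice of different groups was that of differently numbered mice, NGT mouse 1 and Lira mouse 3 (r = 0.780). Within numbers 1, 2 and 3 the summed OXPHOS level differed by -0.22, -0.34 and -0.35 on the log2 scale, and 60 of the 92 genes (65.2%; 19% of all tested genes) were lower in the T1D mouse of every pair. With a block for mouse number over all 9 libraries, 0 genes were called and 2 of the 92 passed an unadjusted p of 0.05 (5.39% of all tested genes). With the block and only the 6 libraries compared, 30 of the 92 passed it, 28 of them lower, beside 1931 (14.2%) of all tested genes, and again 0 were called (lowest adjusted p = 0.230).

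**Figure D2:**
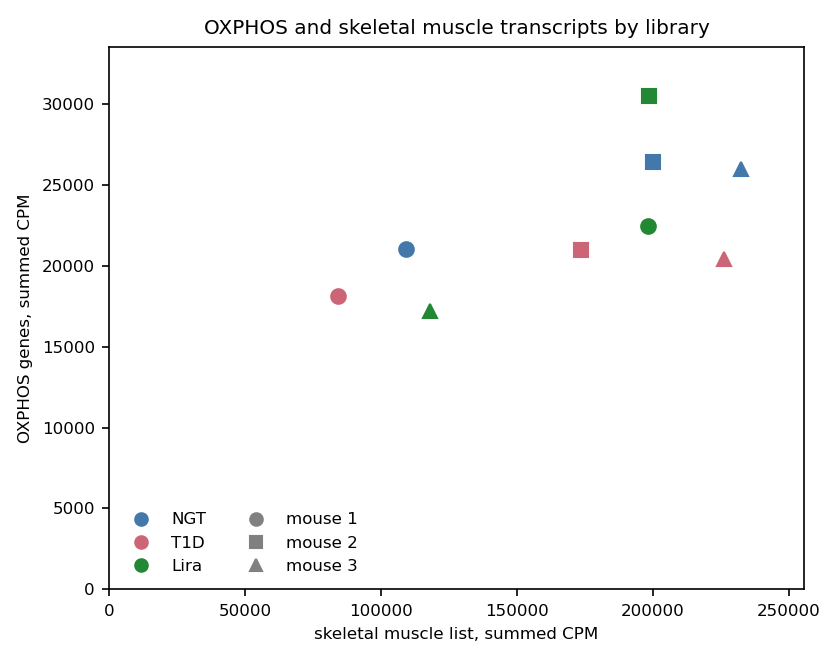
Summed CPM of the OXPHOS genes (vertical axis) against summed CPM of the 10 skeletal muscle markers (horizontal axis) in the 9 libraries, 1 point per mouse. NGT mouse 1, T1D mouse 1 and Lira mouse 3 hold the least muscle transcript, and NGT mouse 2, Lira mouse 1 and Lira mouse 2, with much the same muscle level, differ in OXPHOS level.

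In complex I all 7 core subunits had a fold change below 1 in T1D against NGT, with a median log2 fold change of -0.35. Ndufv1, the subunit that binds NADH, was at 223, 303 and 266 CPM in NGT mice and at 167, 215 and 204 CPM in T1D mice. The groups did not overlap, and the log2 fold change was -0.43 ± 0.26 (SE; unadjusted p = 0.129, edgeR). Ndufs1, an iron-sulfur subunit, and Ndufs8 also did not overlap.

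Of the 30 tested accessory subunits of complex I, 28 had a fold change below 1 (median log2 -0.22), and in 7 the groups did not overlap (background 5.08%). Ndufa10 was at 216, 272 and 247 CPM in NGT and at 148, 183 and 173 CPM in T1D mice, without overlap, with a log2 fold change of -0.54 ± 0.25 (unadjusted p = 0.0607, edgeR). Ndufb2 did not overlap either (-0.43 ± 0.21), whereas Ndufc1 did (-0.43 ± 0.21). The abundant Ndufb9 and Ndufa3 overlapped, at -0.27 ± 0.23 and -0.20 ± 0.17. Among the 8 assembly factors 7 were below 1 (median -0.24). Ndufaf1, which helps to assemble the membrane arm, was the only factor without overlap, with 35.3, 41.5 and 46.0 CPM in NGT and 26.0, 31.4 and 34.5 CPM in T1D.

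In complex II, which also acts in the TCA cycle, all 4 genes had a fold change below 1 (median log2 -0.40). Sdhb was at 362, 468 and 413 CPM in NGT and at 261, 301 and 290 CPM in T1D mice. The groups lay well apart, and the log2 fold change was -0.55 ± 0.27 (unadjusted p = 0.0755, edgeR). Sdhc did not overlap (-0.38 ± 0.23). Sdha, the flavoprotein that oxidizes succinate, overlapped by the T1D mouse 3 and NGT mouse 1 values (725 and 721 CPM), and Sdhd, the other anchor, overlapped too.

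All 8 genes of complex III had a fold change below 1 (median log2 -0.34), and in 6 the groups did not overlap (background 5.08%), the largest share of any complex in TMM-scaled CPM with all mice. Uqcrc1, a large core protein of the matrix arm, was at 507, 687 and 573 CPM in NGT mice and at 357, 439 and 445 CPM in T1D mice. It did not overlap, with a log2 fold change of -0.51 ± 0.29 (unadjusted p = 0.112, edgeR). Uqcrfs1, the Rieske iron-sulfur protein, was at 276, 328 and 348 CPM in NGT and at 227, 265 and 266 CPM in T1D. The most abundant gene of the complex, Uqcrb, overlapped (-0.25 ± 0.20).

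**Figure D3:**
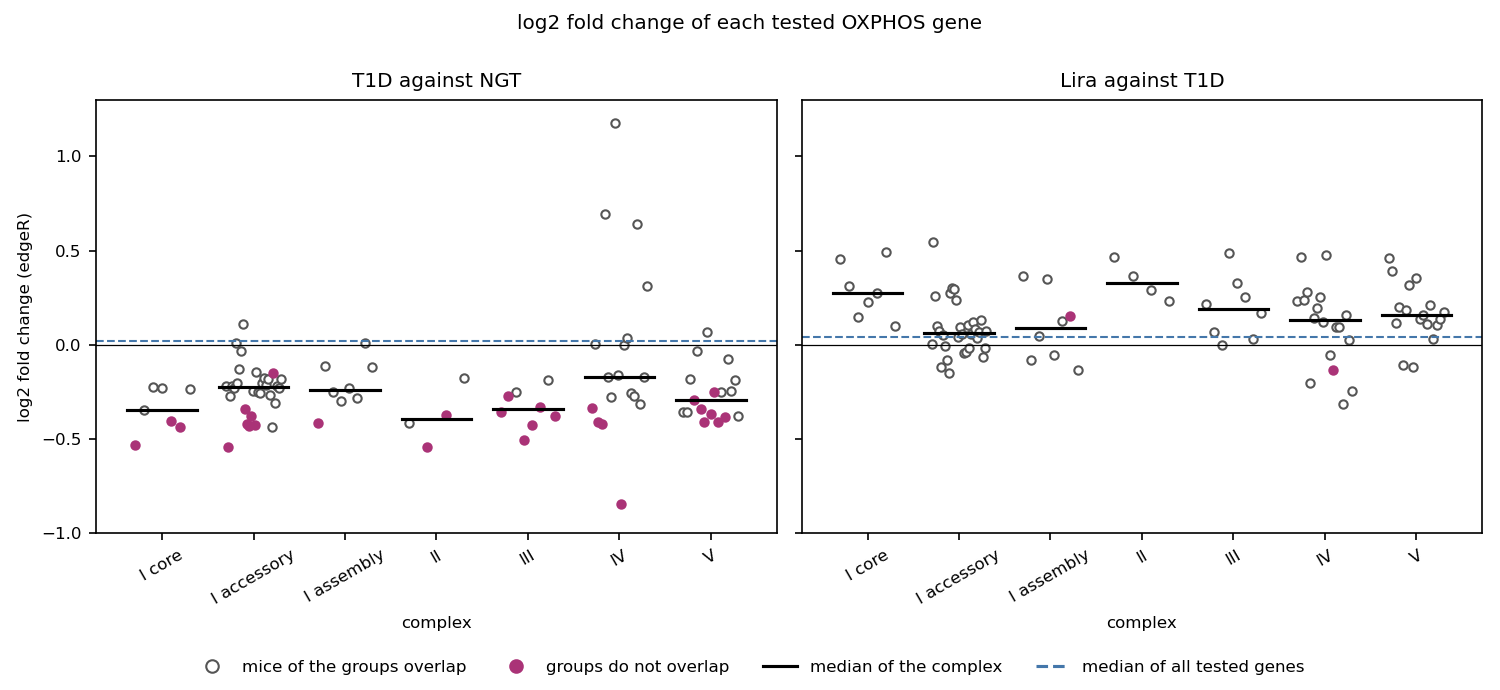
log2 fold change (vertical axis, edgeR) of each of the 92 tested OXPHOS genes by complex (horizontal axis), for T1D against NGT on the left and Lira against T1D on the right; filled points are genes whose groups do not overlap, black bars are medians and the dashed line is the median of all tested genes. On the left 30 points are filled, all of them below 0, and the points furthest above 0 belong to complex IV; on the right 2 are filled. The panels share the T1D mice.

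Complex IV was the least uniform, with 11 of 18 genes below 1 (median log2 -0.17) and 4 without overlap (background 5.08%), Cox7a1, Cox5b, Cox5a and Cox4i1. Cox7a1 encodes the muscle and heart isoform of subunit 7A. It was at 152, 162 and 183 CPM in NGT mice, at 112, 95.9 and 68.7 CPM in T1D mice and at 114, 186 and 84.1 CPM in Lira mice. All T1D mice lay below all NGT mice, while the Lira mice spread over both groups. The log2 fold change of T1D against NGT was -0.85 ± 0.30, or 0.556-fold (unadjusted p = 0.0211, adjusted p = 0.977, edgeR), and that of Lira against T1D was 0.47 ± 0.30 (unadjusted p = 0.149). Cox4i1, the main isoform of subunit 4, was at 348, 421 and 377 CPM in NGT and at 316, 292 and 302 CPM in T1D mice (log2 -0.33 ± 0.22).

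Cox7a2, the widely expressed isoform of the same subunit, was at 72.5, 75.6 and 82.2 CPM in NGT and at 85.3, 71.0 and 74.1 CPM in T1D mice. Its groups overlapped fully, with a log2 fold change of 0.00 ± 0.16. The ratio of Cox7a1 to Cox7a2 in FPKM was 4.56, 4.66 and 4.86 in NGT mice, 2.85, 2.94 and 2.02 in T1D mice and 3.76, 4.61 and 2.69 in Lira mice. The NGT mice were tightly grouped and all above the T1D mice. The log2 ratio was 0.87 lower on average in T1D (2.23 ± 0.05 and 1.36 ± 0.30, SD, n = 3 each; two-sided exact permutation p = 0.1, the smallest that 3 mice against 3 allow, adjusted p = 0.54 over 9 comparisons). Within numbers 1, 2 and 3 it differed by -0.68, -0.66 and -1.27. Between Lira and T1D the log2 ratio differed by 0.49, with overlapping groups (exact permutation p = 0.3).

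The other pairs of muscle and widely expressed isoforms overlapped between groups. The log2 ratio of Cox6a2 to Cox6a1 differed by -0.82 and that of Cox8b to Cox8a by -0.86 in T1D against NGT (exact permutation p = 0.3 for each), also lower within each of the 3 numbers. Without T1D mouse 1 these differences were -0.40 and -0.47, and without NGT mouse 1 they were -1.34 and -1.29. Here the widely expressed isoforms rather than the muscle isoforms differed most between mice. Cox6a1 was at 43.2, 21.2 and 18.6 CPM in NGT mice, at 72.7, 25.6 and 36.1 CPM in T1D mice and at 32.2, 26.4 and 58.0 CPM in Lira mice. Cox8a was at 55.1, 32.9 and 29.1, then 100.1, 37.3 and 45.1, then 42.3, 35.6 and 68.7 CPM in the same order. T1D mouse 1 was the highest of all mice for both genes, and Lira mouse 3 and NGT mouse 1 followed. These 3 mice also had the least of the muscle list, whose part in these ratios was not tested. Cox6b2, known from testis, ranged from 0.15 FPKM in T1D mouse 2 to 12.7 FPKM in Lira mouse 3, and Ndufa4l2, known as a hypoxia-induced gene, from 5.19 FPKM in T1D mouse 3 to 26.6 FPKM in T1D mouse 1.

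**Figure D4:**
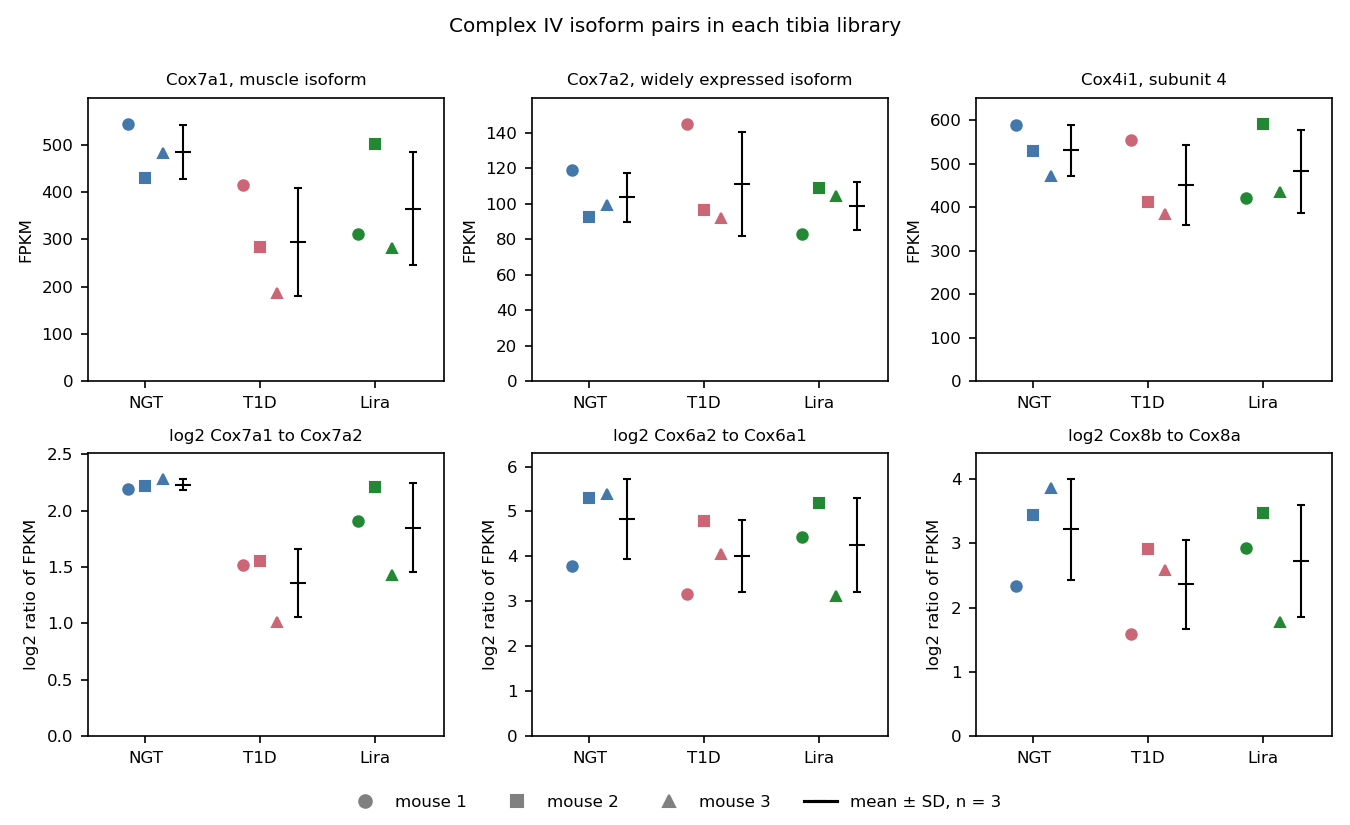
FPKM of Cox7a1, Cox7a2 and Cox4i1 (top) and log2 ratio of muscle to widely expressed isoform in FPKM for 3 subunits of complex IV (bottom), each point 1 mouse of NGT, T1D or Lira, with mean ± SD (n = 3). The Cox7a1 to Cox7a2 ratio lies between 2.19 and 2.28 in NGT mice and between 1.01 and 1.56 in T1D mice, while the other ratios overlap.

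In complex V 16 of 17 genes had a fold change below 1 (median log2 -0.29), and in 7 the groups did not overlap (background 5.08%). Atp5b was at 2447, 3344 and 3038 CPM in NGT and at 1902, 2472 and 2519 CPM in T1D mice. T1D mice 2 and 3 lay just above NGT mouse 1, and the log2 fold change was -0.36 ± 0.31 (unadjusted p = 0.277, edgeR). Atp5a1 gave the same log2 fold change, -0.36 ± 0.33, and also overlapped. Atp5g1, Atp5g2 and Atp5g3 encode the same mature c subunit of the rotor ring with different import sequences. Atp5g1 was at 433, 519 and 511 CPM in NGT and at 362, 363 and 375 CPM in T1D mice, without overlap (-0.41 ± 0.24). Atp5g3 did not overlap either (-0.37 ± 0.23), whereas Atp5g2 overlapped at 0.07 ± 0.19.

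The promoters of these genes share letters that the selection by name did not use. RefSeq promoters (build GRCm38.p6, 250 bases before to 50 after the start) were matched by gene ID for 76 of the 93 genes, and motifs were searched on both strands, overlaps included. The site of nuclear respiratory factor 1 (NRF1), GCGCA and GCGC with any base between, was found in 25% of the 76 genes and in 5.19% of all 27025 genes with a promoter. CCGGAAG, read by ETS factors such as the GABPA protein, was found in 23.7% and 9.93%, AAGATGGCG, read by YY1, in 10.5% and 1.64%, and TCAAGGTCA, read by estrogen-related receptors (ERR), in 2.63% and 0.466%. GGGCGG, read by SP1, was found in 44.7% and 38.2%, CACGTG in 7.89% and 8.09%, and CAGCTG, an E-box of muscle factors, in 7.89% and 18.3%. The MEF2 motif was found in 0% and 3.7%. A match is a description of the letters only. The median log2 fold change of T1D against NGT was -0.23 in the 19 genes with the NRF1 letters and -0.25 in the 56 tested genes without them. It was -0.22 with (18 genes) and -0.25 without the ETS letters, and -0.28 with (8 genes) and -0.24 without the YY1 letters. For the ERR letters it was -0.27 with (2 genes) and -0.25 without.

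The 250 bases before the start are shown for 4 genes, Cox7a1 and Cox7a2 because their levels parted, and Atp5g3 and Sdhd because they held the ERR letters within their 300 bases. Capitals mark NRF1, ETS or ERR letters. The places are chr7:30183921-30184170 (plus strand) for Cox7a1, chr9:79759854-79760103 (minus) for Cox7a2, chr2:73911327-73911576 (minus) for Atp5g3 and chr9:50603850-50604099 (minus) for Sdhd, all in GRCm38.p6 and 5′ to 3′ on the strand of the gene.
Cox7a1: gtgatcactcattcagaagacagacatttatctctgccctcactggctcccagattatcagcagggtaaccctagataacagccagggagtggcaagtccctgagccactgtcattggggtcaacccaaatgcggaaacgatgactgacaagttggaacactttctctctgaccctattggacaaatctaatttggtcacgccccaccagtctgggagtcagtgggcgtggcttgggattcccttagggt
Cox7a2: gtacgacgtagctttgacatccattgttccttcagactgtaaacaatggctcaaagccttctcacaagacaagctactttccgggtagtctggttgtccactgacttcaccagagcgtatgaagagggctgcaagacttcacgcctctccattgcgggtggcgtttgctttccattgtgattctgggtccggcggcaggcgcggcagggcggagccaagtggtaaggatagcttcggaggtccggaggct
Atp5g3: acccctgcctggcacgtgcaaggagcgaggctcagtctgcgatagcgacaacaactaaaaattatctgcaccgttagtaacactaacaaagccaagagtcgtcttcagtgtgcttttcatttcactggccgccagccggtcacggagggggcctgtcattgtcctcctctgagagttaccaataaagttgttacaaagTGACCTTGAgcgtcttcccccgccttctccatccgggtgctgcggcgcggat
Sdhd: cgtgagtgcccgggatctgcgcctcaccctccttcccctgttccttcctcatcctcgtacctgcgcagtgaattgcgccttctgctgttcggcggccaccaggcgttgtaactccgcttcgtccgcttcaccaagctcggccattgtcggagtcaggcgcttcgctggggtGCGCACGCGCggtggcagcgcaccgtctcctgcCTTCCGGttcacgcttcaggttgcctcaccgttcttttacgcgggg
None of the 8 motifs was found in the 300 bases of Cox7a1, and Cox7a2 held only the SP1 letters. Atp5g3 showed the ERR letters on the opposite strand, and Sdhd showed NRF1 letters and, on the opposite strand, ETS letters. The ERR letters of Sdhd and the NRF1 letters of Atp5g3 do not lie wholly before the start and are not shown.

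Whether liraglutide changed these transcripts was asked by comparing Lira with T1D mice, which are the same 3 T1D mice as above. The summed OXPHOS level in Lira mice was 22494, 30504 and 17187 CPM, so that mice 1 and 2 lay above every T1D mouse and mouse 3 below every T1D mouse. By share of library counts they were at 2.06%, 2.76% and 1.93%, with mouse 1 below T1D mice 1 and 2 and mouse 3 above T1D mouse 3. The mean was 1.18 times that in T1D (23395 ± 6704 CPM in Lira, SD, n = 3). None of the 92 genes was called (edgeR, background 0%; 0 by DESeq2) and 0 passed an unadjusted p of 0.05 (background 3.33%, with 1.55% higher and 1.78% lower). The fold change was above 1 in 72 and below 1 in 20 genes (background 55.3% and 44.7%), with a median log2 fold change of 0.12 against 0.04 for all tested genes. With library totals in place of TMM the split was 48 above and 44 below (56.2% of all tested genes below), with a median of 0.01, and with the muscle covariate 41 were below (43.9%).

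The direction rested on single mice. Without Lira mouse 2 the median log2 fold change was -0.10 and 66 genes were below 1 (47.5% of all tested genes). Without Lira mouse 3 it was 0.27, 12 were below 1 (53.5%) and 11 passed an unadjusted p of 0.05 (5.35%). Without T1D mouse 1 and Lira mouse 3 together it was 0.24. In 1 gene every Lira mouse lay above every T1D mouse (background 3.74%), Ndufaf7, an assembly factor of complex I, at 20.6, 19.3 and 18.5 CPM against 16.7, 17.7 and 18.0 CPM. In 1 gene every Lira mouse lay below (background 3.4%), Cox7a2l, a factor of respiratory supercomplexes, at 102.5, 104.8 and 91.3 CPM against 106.4, 107.8 and 113.3 CPM. Ndufaf7 counts were not whole in any library, which is how reads shared between genes are divided.

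By complex, the fold change of Lira against T1D was above 1 in 7 of 7 core and 21 of 30 accessory subunits and 5 of 8 assembly factors of complex I. It was above 1 in 4 of 4 genes of complex II, 7 of 8 of complex III, 13 of 18 of complex IV and 15 of 17 of complex V. The median log2 fold change was 0.33 in complex II, 0.27 in the core of complex I, 0.19 in complex III, 0.16 in complex V, 0.13 in complex IV, 0.09 in the assembly factors and 0.06 in the accessory subunits. Ndufa10 had the highest log2 fold change of the OXPHOS genes in this comparison, with 227, 337 and 171 CPM in Lira mice and a value of 0.55 ± 0.25 (unadjusted p = 0.0601, edgeR). Lira mouse 3 lay among the T1D mice. Ndufv1 (0.49 ± 0.26) and Uqcrc1 (0.49 ± 0.29) came next. Without Lira mouse 2 the log2 fold changes of Ndufa10, Ndufv1 and Uqcrc1 were 0.24, 0.21 and 0.14. The lowest values were those of Cox8a (-0.32 ± 0.43), Ndufa4l2 (-0.24 ± 0.49) and Cox6a1 (-0.20 ± 0.48). Without T1D mouse 1, the highest of all mice for these genes, they were 0.25, 0.43 and 0.34.

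Against NGT mice, Lira mice had 0 genes called (edgeR, background 0%) and 0 at an unadjusted p under 0.05 (background 0.781%). The fold change was below 1 in 79 of 92 genes (background 44.5%), with a median log2 fold change of -0.12, and the groups overlapped for every OXPHOS gene (background without overlap 2.49% higher and 1.78% lower). Without Lira mouse 3 the median was 0.03 with 38 below 1 (53.6% of all tested genes), and without Lira mouse 2 it was -0.34 with 88 below 1 (47.6%).

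Other mitochondrial genes were taken from lists, none of which held a called gene in any comparison. All 17 TCA cycle enzymes had a fold change below 1 in T1D against NGT (median log2 -0.42), 7 of them without overlap (background 47.9% and 5.08%). All 17 had one above 1 in Lira against T1D (0.36, background 55.3%), although the summed level of the list overlapped between these groups. Dlat, a subunit of pyruvate dehydrogenase, was at 251, 289 and 272 CPM in NGT mice, 164, 197 and 174 CPM in T1D mice and 234, 352 and 178 CPM in Lira mice, with T1D below NGT throughout. Of 44 assembly factors outside the naming rule, 40 were below 1 (median -0.18). Bcs1l, which inserts the Rieske protein into complex III, was at 17.5, 26.5 and 23.8 CPM in NGT, 15.4, 14.9 and 13.2 CPM in T1D and 18.2, 29.2 and 16.4 CPM in Lira mice, with T1D below both other groups. Of 22 electron carriers and inner membrane transporters, 19 were below 1 (median -0.35), among them Coq10a, a coenzyme Q binding protein (-0.70 ± 0.28), and Slc25a3, the phosphate carrier (-0.36 ± 0.25), both without overlap. Genes of the mitochondrial genome were not analysed here.

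Regulators of these genes differed more than the OXPHOS genes themselves in a few cases. Ppargc1a encodes PGC-1α, a coactivator of mitochondrial biogenesis. It was at 70.3, 149.8 and 69.3 CPM in NGT mice, at 19.6, 56.1 and 35.2 CPM in T1D mice and at 87.9, 75.9 and 31.7 CPM in Lira mice. All T1D mice lay below all NGT mice, and the Lira mice spread over both. The log2 fold change was -1.38 ± 0.51 in T1D against NGT (unadjusted p = 0.0250, adjusted p = 0.977, edgeR) and 0.82 ± 0.51 in Lira against T1D. Ppara, a nuclear receptor that drives fatty acid oxidation, was at 33.7, 55.4 and 31.8 CPM in NGT, at 15.9, 22.2 and 13.8 CPM in T1D and at 48.2, 51.7 and 22.3 CPM in Lira mice. T1D mice lay below both other groups, although T1D mouse 2 and Lira mouse 3 all but touched. The log2 fold changes were -1.22 ± 0.36 (unadjusted p = 0.00875) and 1.24 ± 0.36 (unadjusted p = 0.00821), with adjusted p of 0.977 and 0.978 (edgeR).

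Esrra, which encodes ERR alpha, and Gabpa, an ETS factor, also lay lower in every T1D than in every NGT mouse, at -0.41 ± 0.25 and -0.30 ± 0.17. In Lira against T1D mice Gabpa was at 0.38 ± 0.17 without overlap (unadjusted p = 0.0471, adjusted p = 0.978, edgeR), and Esrra at 0.41 ± 0.25 with overlap. For Nrf1 the groups overlapped at 0.11 ± 0.18, and likewise for Tfam, a factor of mitochondrial transcription, at -0.22 ± 0.25. Of the 17 regulators 13 had a fold change below 1 in T1D against NGT (median log2 -0.33, background 47.9%). All 17 had one above 1 in Lira against T1D (0.38, background 55.3%), although the summed level of the list overlapped between these groups.

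**Figure D5:**
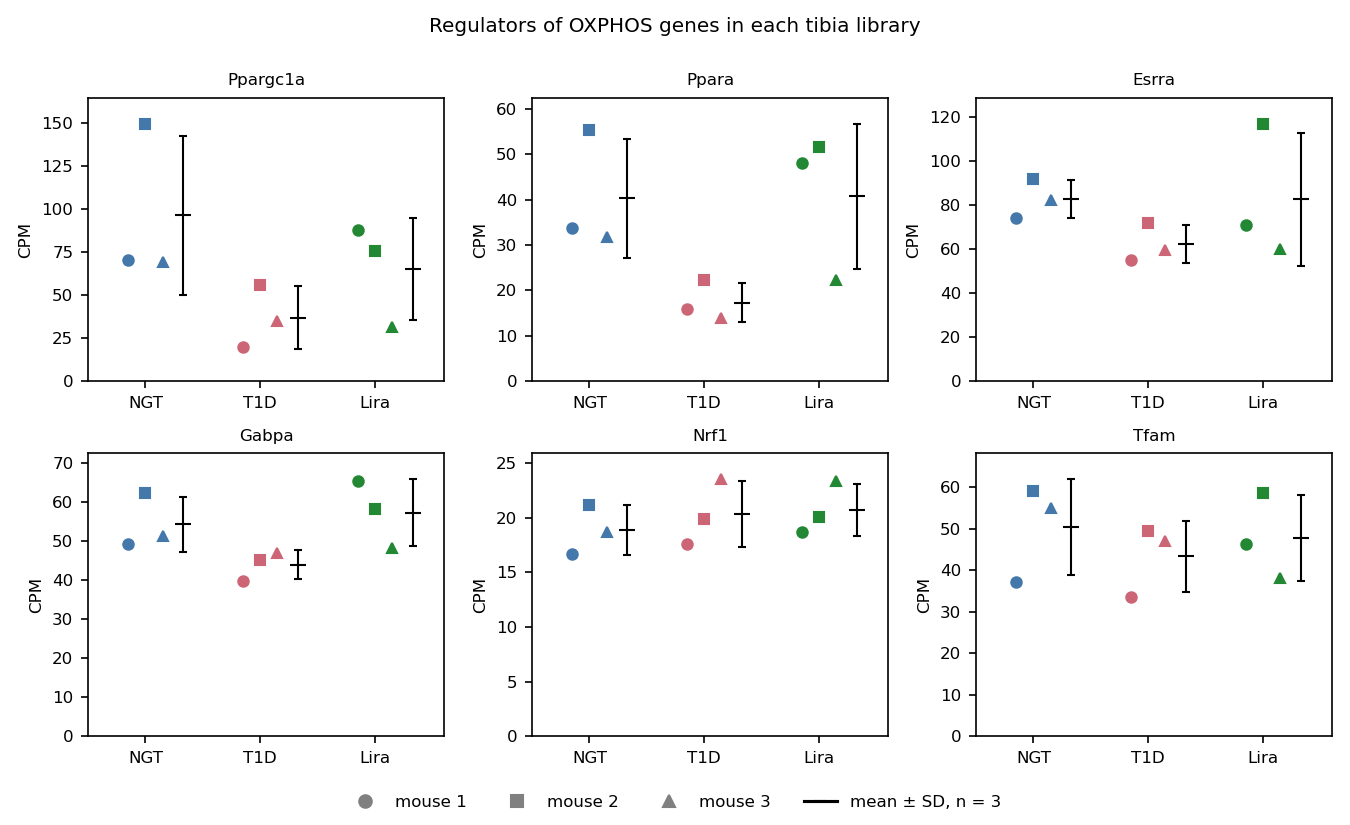
CPM (vertical axis) of 6 regulators of mitochondrial genes in each mouse of NGT, T1D and Lira, with mean ± SD (n = 3). Ppargc1a and Ppara lie lower in all T1D than in all NGT mice, and Nrf1 and Tfam overlap.

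Markers of other cells also varied between mice. A macrophage and osteoclast list, with 5 of 5 genes tested, was at 110, 17.1 and 40.5 CPM in NGT mice, 485, 86.6 and 202 CPM in T1D mice and 104, 33.9 and 170 CPM in Lira mice. The groups overlapped, although the list was higher in the T1D than in the NGT mouse of every number. In T1D against NGT 3 of its genes passed an unadjusted p of 0.05, all 5 did with the replicate block, and 0 did without T1D mouse 1, NGT mouse 2 or NGT mouse 3. A slow muscle fiber list of 6 genes ranged from 517 to 7993 CPM in NGT, from 776 to 8695 CPM in T1D and from 2245 to 5567 CPM in Lira mice, with overlap and no common direction within numbers. The part of these cells in the OXPHOS levels was not tested.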

How the data were processed

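The authors extracted total RNA from snap-frozen tibiae, enriched mRNA with oligo(dT), sequenced 1 library per mouse and aligned clean reads to the mouse genome (mm9 per the submitters' processing notes; aligner and counting tool are not given in the sources used here). They deposited expected counts per gene, not normalized and 30.2% of them not whole (tolerance 1e-06), and FPKM values, scaled by the authors for gene length and depth. In 23 of the 93 OXPHOS genes a count was not whole in at least 1 library. Ndufb4, Ndufb4b and Ndufb4c are near-identical copies that share reads, so their values are uncertain. Since the build differs from the reference here, no coordinates of the files are given.

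Counts were rounded and fitted with edgeR 4.0.16 under R 4.3.3 (TMM, glmQLFit and glmQLFTest on 3 group means over 9 libraries). Standard errors were derived from the F statistic. The spread between mice of a group, over all tested genes, was a biological coefficient of variation of 0.433. In data simulated for T1D against NGT, with 200 of 13960 genes changed, 102 were recovered at a 4-fold change (5 false calls) and 177 at 16-fold (4 false calls). Isoform ratios used FPKM without a pseudocount and a two-sided exact permutation test. Samples were grouped by their labels, with 0 sample columns left unmapped. P-values measure only the spread between these mice. Alternatives were DESeq2 1.42.0, library totals, no filter, a replicate block, 2-group fits, a muscle covariate, other forms of the isoform ratio, and leaving out mice.

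To check pairing, the log2 CPM (prior count 2) of each mouse, as its deviation from the group mean, was correlated across genes. Same-numbered NGT and T1D mice gave r = 0.583, 0.647 and 0.283, each over 0.1, and were taken as pairs, although the labels give only the number. T1D and Lira mice (-0.244, 0.615 and 0.271) were not. Differently numbered NGT and T1D mice gave -0.697 to 0.067. Some differently numbered mice of other groups correlated as well, NGT mouse 1 and Lira mouse 3 at 0.780 and T1D mouse 1 and Lira mouse 3 at 0.412.

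The OXPHOS genes and all lists were chosen with earlier results of these data known, and Ndufb4b and Ndufb4c were added to the complex map after the table was read. Genes named by rule were, per complex, the 2 of highest mean FPKM, in each comparison the 3 largest positive and negative log2 fold changes, genes at an unadjusted p under 0.05, the isoform pairs, and at most 3 genes of lowest p per list. The values of 1 gene that the rule named are not reported here. Ndufs1, Ndufs8, Sdha, Sdhd, Uqcrfs1, Cox5a, Cox5b, Ndufaf7, Cox7a2l, Esrra, Nrf1 and Tfam were chosen after their values were seen. Proteins, serum and bone measurements were not analysed here.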

Additional observations from a re-analysis of the deposited data

How the results depend on the processing

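None of the 92 OXPHOS genes was called in any comparison under any alternative run, and of all tested genes 1 was called, in Lira against T1D with DESeq2. The median log2 fold change of T1D against NGT stayed below 0 under every alternative, at -0.36 to -0.16 with a mouse left out, -0.16 with library totals and -0.11 with the muscle covariate. That of Lira against T1D ran from -0.10 (without Lira mouse 2) to 0.27 with a mouse left out, and that of Lira against NGT from -0.34 (without Lira mouse 2) to 0.026.

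Counts at an unadjusted p under 0.05 were less stable. Percentages in brackets give the share of all tested genes that passed in the same fit. In T1D against NGT (1 gene, 3.95%) they were 4 with DESeq2 (5.01%) and 2 with library totals (3.4%). They were 6 with only the groups compared (4.02%) and 2 with the replicate block (5.39%). With the block and only the groups compared they were 30 (14.2%). Without T1D mouse 1 and Lira mouse 3 they were 6 (3.84%). With a mouse left out they ran from 0 to 9. The 0 came without NGT mouse 3 (1.81%) or T1D mouse 3 (4.996%), and the 9 without Lira mouse 2 (4.39%). In Lira against T1D (0 genes, 3.33%) they were 1 with DESeq2 (4.46%) and 6 without T1D mouse 1 and Lira mouse 3 (3.66%). With a mouse left out they were 0 to 11, the 11 without Lira mouse 3 (5.35%). In Lira against NGT (0 genes, 0.781%) they were 1 with library totals (0.723%), without the filter (0.9%) and with the muscle covariate (2.11%). With a mouse left out they were 0 to 9, the 9 without Lira mouse 2 (3.2%). The 30 genes lower in every T1D mouse became 17 with library totals, 0 per muscle CPM, 60 within pairs and 30 to 73 with a mouse left out. Neither the count within pairs nor that with a mouse left out can fall below 30. The block with only the groups compared, the fit without T1D mouse 1 and Lira mouse 3, and the alternatives to the 30 genes were added after seeing the data.

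In Lira against T1D the log2 ratio of Cox6a2 to Cox6a1 ran from -0.23 (without Lira mouse 2) to 0.81, with -0.17 without T1D mouse 1, and that of Cox8b to Cox8a from -0.029 (without T1D mouse 1) to 0.84, with -0.013 without Lira mouse 2. Single genes that changed sign in Lira against T1D, with a value over 1 SE from 0 in at least 1 of the fits compared, were Cox6b2 (-1.64 without Lira mouse 3 to 2.04 without T1D mouse 3, -1.95 without T1D mouse 1 and Lira mouse 3), Cox6a1 (0.19 with the muscle covariate), Ndufa4l2 (-0.61 without Lira mouse 2 to 0.43 without T1D mouse 1, 0.61 without T1D mouse 1 and Lira mouse 3) and Cox4i1 (-0.017 without Lira mouse 2 to 0.38 without Lira mouse 3). In Lira against NGT they were Ndufa10 (-0.30 without Lira mouse 2 to 0.20 without Lira mouse 3), Coq5 (-0.25 to 0.27 without the same mice) and Cox6b2 (-0.46 without Lira mouse 3 to 2.63 without NGT mouse 1, -0.50 without T1D mouse 1 and Lira mouse 3). The cause of these changes was not tested. Of 2193 values of 43 named genes under alternatives, 164 changed sign, 154 of them within 1 SE of 0 in both fits. Changes below 4-fold were not simulated.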
